A study of Rattus norvegicus with 36 samples.

Results

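Fibroblasts build the fibrous matrix of the lung, and a list of 32 fibroblast and extracellular matrix genes was used to see which libraries of cultured rat alveolar macrophages held stromal transcripts, and which matrix genes were present without them. The genes were taken by symbol from the deposited table of 23487 gene symbols. Of the 32 symbols 30 had a row, and the other 2 are not analysed here. After the filter on low counts 29 of the 30 were tested among 14498 genes.

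The libraries were made from primary alveolar macrophages of male F344/HanZtmRj rats, the phagocytes that clear inhaled particles from the air spaces. Per the labels, the culture medium was DMEM, supplemented with 10% fetal bovine serum and an antibiotic-antimycotic, and culture lasted 5 days. For 4 days the cells met 1 of 4 particles at a non-overload or an overload level, or a control condition. The carbon black was Printex90, while Bayertitan, G1-1 and G3-1 were 3 titanium dioxides. Each particle series had its own controls, which gave 12 groups of 3 libraries and 36 libraries in all. The age of the rats, the particle doses behind the 2 loadings and the content of the control condition are not given in the sources used here. The labels call the replicates biological but do not say whether they came from separate animals, so p-values measure the spread between these libraries, which may be technical in part.

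Every level is in CPM, a counts-per-million scale, on library totals scaled by the trimmed mean of M-values (TMM). Library totals ran from 22274300 to 37131500 counts, so that 3 counts corresponded to 0.0812 to 0.134 CPM. The macrophage label held in every library: of 12 macrophage markers, 10 were at 1 CPM or more in all 21 libraries that held no Col3a1, among them Cd68 at 566 to 879 CPM and Lyz2 at 11213 to 16861 CPM. In the 15 libraries with Col3a1 the same 2 genes stood at 483 to 796 CPM and 9915 to 16639 CPM. The other 2 markers were Marco, a scavenger receptor, at no more than 0.360 CPM in any library, and Chi3l1. The libraries also held epithelial transcripts, whose summed level over the 15 marker genes in the table was 1212 to 3486 CPM. No count of Sftpc, the surfactant gene that defines alveolar type II cells, was found in any library.

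The extracellular matrix of the lung consists of a thin basement membrane, built on collagen IV, under epithelium and endothelium, and of a fibrous interstitium, built on collagens I and III with elastin. Fibroblasts secrete most of the interstitial collagens, together with the small proteoglycans and microfibril proteins that organise the fibrils. Collagen IV, SPARC, lysyl oxidase and the contractile proteins also occur in epithelial, mesothelial and smooth muscle cells, so that a transcript of this list is not by itself a sign of fibroblasts. Macrophages are not a usual source of Col3a1, which was therefore taken as the measure of stromal transcripts.

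Promoter sequences of 20 of the 30 genes were found in the RefSeq table of the rat build GRCr8, each taken as the 250 bases before the transcription start. Those the results turn on are shown here, read 5′ to 3′. The start sites of Col4a2 and Col4a1 lie 77 bases apart and point away from each other, Col4a2 on the minus strand and Col4a1 on the plus strand of chromosome 16, and their levels ran together in the libraries described further on. The sequence between the 2 starts, chr16:84885521-84885596, is shown on the plus strand with the match to GGGCGG on the other strand in capitals, and 78.9% of its 76 bases are G or C.
Col4a2-Col4a1: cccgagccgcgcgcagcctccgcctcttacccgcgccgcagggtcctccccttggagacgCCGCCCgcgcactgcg
Ccn2 and Acta2 are shown because the overload effects of Ccn2 had opposite signs in 2 particle series and Acta2 differed between the control groups. Both windows lie on the minus strand, Ccn2 at chr1:22624615-22624864 and Acta2 at chr1:241172504-241172753. Capitals mark matches on either strand to TATAAA, to CATTCC and to GGGCGG.
Ccn2: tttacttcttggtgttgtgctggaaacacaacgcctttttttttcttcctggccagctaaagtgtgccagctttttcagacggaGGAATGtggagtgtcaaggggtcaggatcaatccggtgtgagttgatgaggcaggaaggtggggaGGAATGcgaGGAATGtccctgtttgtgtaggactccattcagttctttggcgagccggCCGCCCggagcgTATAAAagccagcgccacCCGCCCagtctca
Acta2: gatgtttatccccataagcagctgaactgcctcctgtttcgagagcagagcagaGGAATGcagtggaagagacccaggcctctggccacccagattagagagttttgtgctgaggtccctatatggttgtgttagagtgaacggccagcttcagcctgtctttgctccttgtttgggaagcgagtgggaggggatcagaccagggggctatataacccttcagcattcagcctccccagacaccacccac
Both strands of each window were searched for 6 motifs. CATTCC, the core of the TEAD sites, occurred in 5 of the 20 genes (Acta2, Cald1, Ccn2, Loxl1 and Sparc) and in 12.1% of the 33465 rat promoter windows. Ccn2 had 3 such matches, and its match to TATAAA began 31 bases before the start. GGGCGG occurred in 8 genes and in 30.5% of all windows, TATAAA in 4 genes and 12.9%, TGACTCA in 1 gene and 4.05%, and CAGAC in 13 genes and 42.9%. The 20 genes had 21 windows, since Cald1 had a further one, and TATAAA was found for Cald1 only in that further window. The CArG box of serum response factor was searched in its strict form, CC, 6 bases that are each A or T, and GG, which no window of the 20 genes held and 1.5% of all windows did. With at most 1 base off that form, a search added after the windows had been seen, it was in the windows of Acta2 and Cald1 and in 18.7% of all windows. These are matches of letters and no measure of binding.

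Col3a1, the alpha chain of the fibrillar collagen III, was either abundant or absent. It passed 10 counts in 15 of the 36 libraries. No value lay in between: the highest library below that limit had 1 count and the lowest above it had 334. In the Printex90 series its level was 28.6, 12.8 and 0 CPM in the controls, 432, 0 and 0 CPM with non-overload and 0, 0 and 0 CPM with overload. In the G1-1 series it was 28.7, 0 and 0 CPM in the controls, 0, 19.6 and 0 CPM with non-overload and 218, 0 and 0 CPM with overload. In 7 of the 12 groups 1 library held it and in 4 groups 2 did. In the G3-1 series it was 0.0271, 0 and 271 CPM in the controls, 135, 0 and 194 CPM with non-overload and 0, 382 and 303 CPM with overload. In the Bayertitan series it was 0.0354, 0.0350 and 183 CPM in the controls, 0, 656 and 196 CPM with non-overload and 175, 0 and 0 CPM with overload. Printex90 overload was the group without such a library, and no group had 3. Over the 15 libraries the level ran from 12.8 to 656 CPM, a 51.4-fold range, with a median of 194 CPM.

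The libraries with Col3a1 were spread over loadings, particles and replicate numbers. They were 5 of 12 controls, 6 of 12 with non-overload and 4 of 12 with overload. By particle they were 3 of 9 for Printex90, 3 of 9 for G1-1, 5 of 9 for G3-1 and 4 of 9 for Bayertitan, and by replicate number 6, 4 and 5 of 12. On the log2(CPM + 1) scale the mean of Col3a1 was 0.23 higher with overload than in the controls, and higher in 2 of the 4 particles. A two-sided exact permutation test within particles gave p = 0.938 over 160000 arrangements, and p = 0.938 after adjustment over the 2 loadings (n = 12 against 12). With non-overload the mean was 1.29 higher, and higher in 3 of the 4 particles (exact permutation p = 0.411, adjusted p = 0.823). Neither difference was detectable against the spread between libraries. In bulk libraries, fewer cells of a type and less RNA per cell cannot be told apart.

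**Figure D1:**
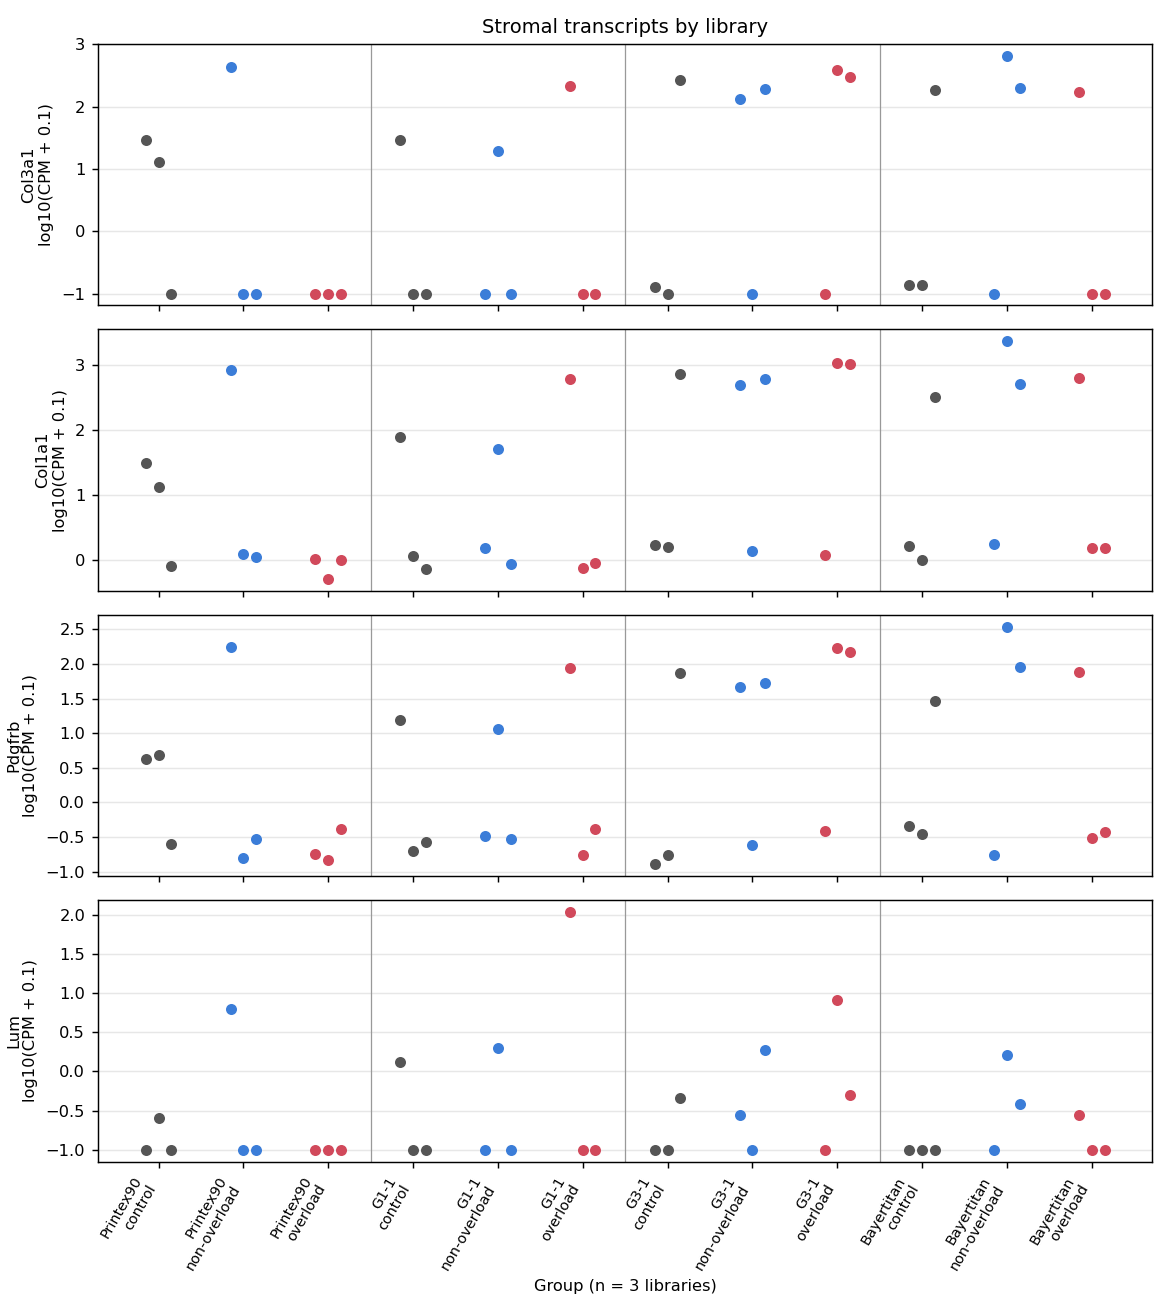
Levels of Col3a1, Col1a1, Pdgfrb and Lum in each of the 36 libraries, as log10(CPM + 0.1), by group with 3 libraries each (grey controls, blue non-overload, red overload). Col3a1 is at 12.8 to 656 CPM in 15 libraries and at 1 count or less in 21, Col1a1 and Pdgfrb are high in those 15, and Lum reaches 108 CPM in a single library.

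Col1a1, the main chain of the fibrillar collagen I, was high in the same 15 libraries. In the Printex90 series it stood at 30.9, 13.1 and 0.707 CPM in the controls, 838, 1.12 and 1.01 CPM with non-overload and 0.923, 0.401 and 0.895 CPM with overload. In the G1-1 series it stood at 78.9, 1.04 and 0.614 CPM in the controls, 1.39, 50.7 and 0.764 CPM with non-overload and 625, 0.629 and 0.790 CPM with overload. Every library with Col3a1 lay above every library without it in both series. In the G3-1 series Col1a1 stood at 1.57, 1.45 and 749 CPM in the controls, 499.6, 1.25 and 613 CPM with non-overload and 1.07, 1107 and 1058 CPM with overload. In the Bayertitan series it stood at 1.52, 0.874 and 328 CPM in the controls, 1.67, 2359 and 517 CPM with non-overload and 645, 1.39 and 1.40 CPM with overload. Over all series the 15 libraries with Col3a1 ranged over 13.1 to 2359 CPM (median 613 CPM), and the 21 without over 0.401 to 1.67 CPM (median 1.04 CPM). Col1a1 thus had a low level, above that of 3 counts, in each library without Col3a1. The libraries were divided by a measured gene, so these ranges are descriptions with no test.

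A further 5 listed genes had this pattern, each higher in every library with Col3a1 than in every library without it. Col6a1 and Col6a2, chains of the collagen VI that forms beaded filaments around cells, ran over 0.917 to 75.9 CPM (median 18.3 CPM) and 1.03 to 112 CPM (median 32 CPM) in the 15 libraries, against 0 to 0.308 CPM and 0 to 0.194 CPM in the other 21. Fbn1, the fibrillin of microfibrils, ran over 1.03 to 97.7 CPM (median 32.6 CPM) against 0 to 0.389 CPM. The receptors for platelet-derived growth factor showed it too. Pdgfra, a marker of lung fibroblasts, ran over 1.30 to 105 CPM (median 19.1 CPM) against 0.119 to 0.953 CPM, and Pdgfrb, which marks pericytes and fibroblasts, over 4.13 to 346 CPM (median 74.9 CPM) against 0.0271 to 0.354 CPM. Over all 14498 tested genes 43, or 0.297%, lay higher in each of the 15 libraries than in each of the 21, and these include Col3a1 itself.

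Among 19 further fibroblast genes, 5 lay higher in every library with Col3a1. These were the transcription factors Twist2, Tbx4 and Foxf1, the adhesion molecule Cdh11 and the collagen receptor Ddr2. Twist2 ran over 0.229 to 35.1 CPM (median 13.5 CPM) against 0 to 0.0346 CPM, and Cdh11 over 1.15 to 57.3 CPM (median 18.9 CPM) against 0 to 0.280 CPM. Prrx1, a mesenchymal transcription factor, lay above all libraries without Col3a1 in 14 of the 15. The pattern was shown by 3 of 30 other matrix genes. They were Ltbp2, a binding protein of latent TGF-beta, at 22.9 to 545 CPM against 9.93 to 19.5 CPM, the laminin chain Lama4, and Mgp, an inhibitor of calcification, at 0.605 to 279.8 CPM against 0 to 0.0389 CPM. None of 12 smooth muscle and pericyte genes, 10 mesothelial genes or 15 epithelial genes had it, and of 11 endothelial genes 1 did, the TGF-beta co-receptor Eng at 19.1 to 58.3 CPM against 9.50 to 18.5 CPM. The pericyte marker Rgs5 had no count in any library, and the endothelial markers Emcn and Cldn5 had at most 3.

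**Figure D2:**
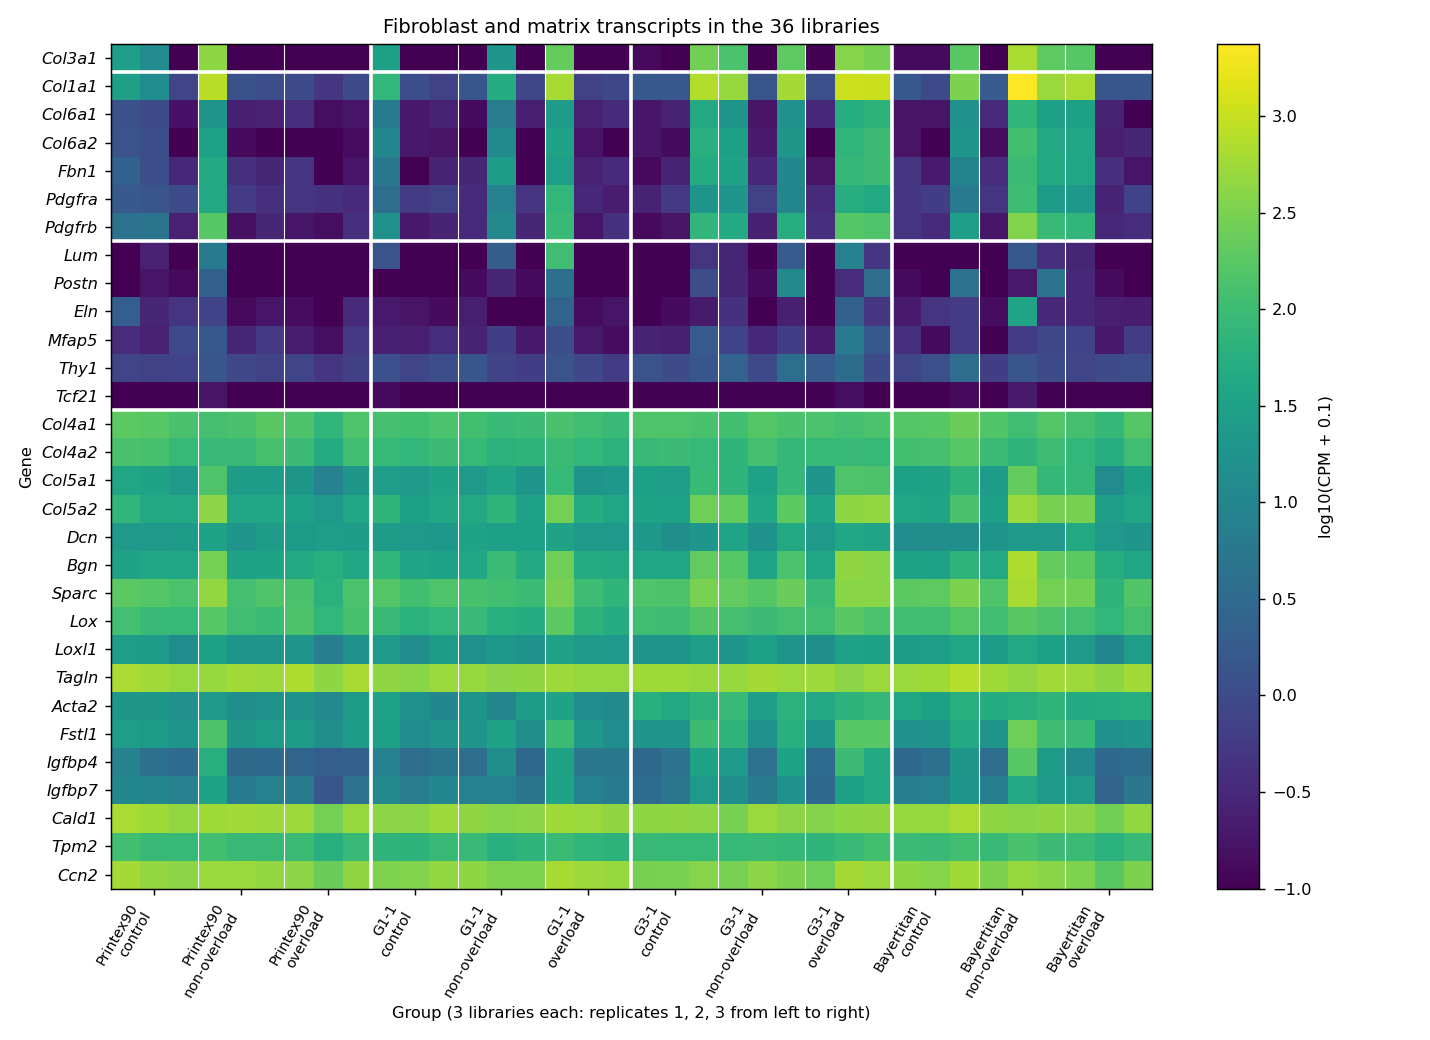
Levels of the 30 genes in the 36 libraries as log10(CPM + 0.1), with libraries in columns by group and white lines between particle series. Rows are in 4 blocks from top to bottom: Col3a1, the 6 genes that follow it, 6 genes that are low or uneven, and 17 genes at 1 CPM or more in every library without Col3a1.

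The list was not uniform even among the stromal genes. Lum, the small proteoglycan lumican of collagen-rich tissue, had no count in any of the 21 libraries without Col3a1. It reached 108 CPM in G1-1 overload replicate 1, from 3198 counts, while the next highest library, G3-1 overload replicate 2, had 7.99 CPM. Postn, the matricellular protein periostin, reached 11.2 CPM in G3-1 non-overload replicate 3 and at most 4.51 CPM elsewhere. Eln, the elastin precursor, reached 35.2 CPM in Bayertitan non-overload replicate 2, from 1024 counts, and at most 2.41 CPM elsewhere. The libraries with the highest Lum, Postn and Eln were thus 3 different libraries. Mfap5, a microfibril protein, ranged over 0.145 to 5.98 CPM in the libraries with Col3a1 and 0 to 0.830 CPM in the others, and its highest library was G3-1 overload replicate 2. Thy1, a surface marker of many rat fibroblasts, stayed low, at 0.611 to 3.64 CPM and 0.401 to 1.68 CPM. Tcf21, a transcription factor of lung mesenchyme in mice, had at most 3 counts in any library and was not tested.

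The composition of the stromal transcripts also varied, as shown by each gene's CPM divided by the CPM of Col3a1 in the 15 libraries. These ratios are compared between libraries and not between genes, since levels were not divided by gene length. The ratio of Col1a1 varied least, from 1.03 to 3.70, a 3.59-fold range beside the 51.4-fold range of Col3a1 itself. It was 1.03 to 1.94 in the 3 Printex90 libraries, 2.59 to 2.86 in the 3 G1-1 libraries, 2.76 to 3.70 in the 5 G3-1 libraries and 1.79 to 3.68 in the 4 Bayertitan libraries. The ratio of Pdgfrb ran over a 3.99-fold range, from 0.144 to 0.575. Wider ranges were found for Col6a1 (8.76-fold), Pdgfra (12.4-fold), Col6a2 (14.5-fold) and Fbn1 (24.6-fold). G1-1 non-overload replicate 2, whose Col3a1 level was 19.6 CPM, had the highest ratio for each of these 4 genes and for Pdgfrb. Its Fbn1 ratio was 1.25, while no other library passed 0.322, so the Fbn1 range rested on that library. Levels present without Col3a1 were not taken off before the division. For Pdgfra these reached 0.953 CPM, beside 1.30 CPM in the lowest library with Col3a1. The 2 collagen VI chains kept closer to each other than to Col3a1, with a ratio of Col6a1 to Col6a2 of 0.552 to 0.912, a 1.65-fold range over the 15 libraries.

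**Figure D3:**
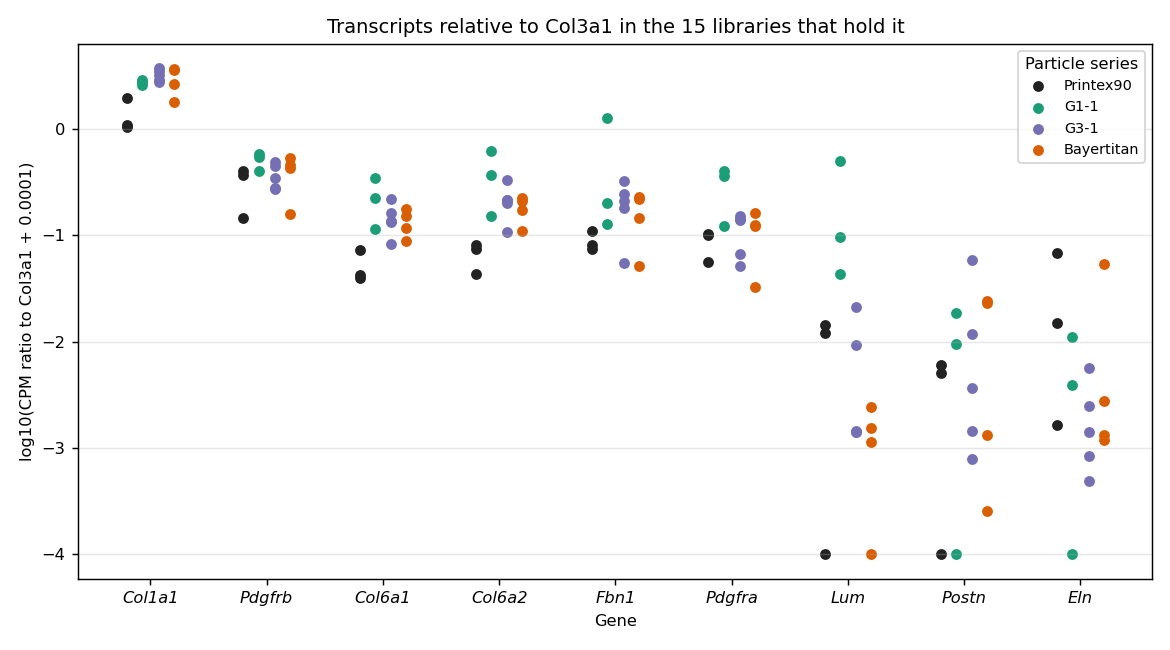
CPM of 9 genes divided by the CPM of Col3a1, as log10(ratio + 0.0001), in each of the 15 libraries that held Col3a1, coloured by particle series. The Col1a1 ratio spans 1.03 to 3.70 while the ratios of Lum, Postn and Eln spread over several powers of 10, with points at the bottom for libraries at 0.

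Of the 30 genes 17 were at 1 CPM or more in each of the 21 libraries without Col3a1. Some of them stood higher beside Col3a1 and others did not, as the ranges show. The collagen V chains, which help to start collagen I fibrils, were of the first kind. Col5a1 ranged over 8.74 to 33.5 CPM (median 23.5 CPM) without Col3a1 and 28.6 to 217 CPM (median 82.1 CPM) with it, and 13 of the 15 libraries lay above all 21. Per library in the Printex90 series Col5a1 was at 37.6, 33.1 and 23.2 CPM in the controls, 149, 24.9 and 24.6 CPM with non-overload and 20.2, 8.74 and 20.7 CPM with overload. G1-1 levels of Col5a1 were 28.6, 22.4 and 33.4 CPM in the controls, 23.5, 35.4 and 18.6 CPM with non-overload and 86.5, 18 and 21 CPM with overload. The highest values were in libraries with Col3a1, while G1-1 control replicate 3, without it, lay above G1-1 control replicate 1, with it. G3-1 levels of Col5a1 were 28.8, 28.4 and 91.5 CPM in the controls, 69.5, 31.1 and 80.8 CPM with non-overload and 19, 149 and 144 CPM with overload. Bayertitan levels of Col5a1 were 30.0, 33.5 and 68.6 CPM in the controls, 24.8, 217 and 83.2 CPM with non-overload and 82.1, 12.6 and 30.3 CPM with overload. Overload libraries without Col3a1 reached the lowest levels, 8.74 CPM in Printex90 replicate 2 and 12.6 CPM in Bayertitan replicate 2.

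Col5a2, the partner chain, was at 74.9, 45.3 and 44.6 CPM in the controls, 408, 37 and 41.2 CPM with non-overload and 31.7, 23.5 and 39.5 CPM with overload for Printex90. G1-1 levels of Col5a2 were 73.5, 28.8 and 41.5 CPM in the controls, 44.3, 71.4 and 31.1 CPM with non-overload and 290.3, 50.7 and 36.9 CPM with overload. Without Col3a1 it held a level of 23.5 to 50.7 CPM, and 14 of the 15 libraries with Col3a1 lay above that. G3-1 levels of Col5a2 were 34.4, 31.6 and 251 CPM in the controls, 223, 40.5 and 187 CPM with non-overload and 35.9, 433 and 470.2 CPM with overload. Bayertitan levels of Col5a2 were 39, 36.4 and 133 CPM in the controls, 29.7, 516 and 303 CPM with non-overload and 300.5, 27.1 and 38.8 CPM with overload. The exception was Printex90 control replicate 2 at 45.3 CPM, the library with the lowest Col3a1 among the 15.

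Bgn and Dcn are small leucine-rich proteoglycans that bind collagen fibrils. Bgn, biglycan, was at 32.5, 40.1 and 36.5 CPM in the controls, 287, 34.9 and 33.9 CPM with non-overload and 44.7, 54.3 and 40.0 CPM with overload for Printex90. G1-1 levels of Bgn were 76.8, 35.2 and 32.3 CPM in the controls, 41.5, 95.9 and 46.4 CPM with non-overload and 263, 48.9 and 47.6 CPM with overload. High values again marked libraries with Col3a1, although Printex90 control replicates 1 and 2 were no higher than the libraries without it. G3-1 levels of Bgn were 38.8, 38.9 and 209 CPM in the controls, 176, 36.2 and 137 CPM with non-overload and 36.5, 439 and 394 CPM with overload. Bayertitan levels of Bgn were 32.6, 31.2 and 70.6 CPM in the controls, 42.7, 684 and 220.2 CPM with non-overload and 189, 52.1 and 36.6 CPM with overload. In 13 of the 15 libraries Bgn lay above all 21 others. Dcn, decorin, ranged over 15.1 to 45.8 CPM (median 29 CPM) with Col3a1 and 13.9 to 33.2 CPM (median 22.3 CPM) without it, and 5 of the 15 lay above all 21. Its values per library are given with the loadings.

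SPARC is a collagen-binding glycoprotein of the matrix, and its gene was abundant in all libraries. Sparc stood at 184, 163 and 135 CPM in the controls, 455, 118 and 154 CPM with non-overload and 132, 62.1 and 136 CPM with overload for Printex90. G1-1 levels of Sparc were 159, 111 and 149 CPM in the controls, 128, 112 and 93.8 CPM with non-overload and 304, 105 and 73.9 CPM with overload. The 21 libraries without Col3a1 reached 191 CPM. G3-1 levels of Sparc were 148, 142 and 312 CPM in the controls, 212, 168 and 237 CPM with non-overload and 93.6, 388 and 395 CPM with overload. Bayertitan levels of Sparc were 185, 191 and 322 CPM in the controls, 149, 640.2 and 291 CPM with non-overload and 279, 69.6 and 154 CPM with overload. Of the 15 libraries with Col3a1 11 lay above all others, the highest at 640.2 CPM in Bayertitan non-overload replicate 2. Fstl1, a secreted glycoprotein related to SPARC, lay above all 21 in 14 of the 15. Its levels were 26.8, 23.7 and 18.2 CPM in the controls, 141, 20.4 and 25.6 CPM with non-overload and 23.8, 14.4 and 24.7 CPM with overload for Printex90. G1-1 levels of Fstl1 were 30.0, 13.3 and 18.1 CPM in the controls, 18.4, 32.9 and 14.9 CPM with non-overload and 97.6, 21.8 and 13 CPM with overload. Printex90 control replicate 2 was the exception, at 23.7 CPM. G3-1 levels of Fstl1 were 18.7, 18 and 98.7 CPM in the controls, 70.6, 15.3 and 60.3 CPM with non-overload and 18.3, 172 and 175 CPM with overload. Bayertitan levels of Fstl1 were 16.4, 19.2 and 46.8 CPM in the controls, 18, 255 and 103 CPM with non-overload and 93.6, 15.3 and 18.7 CPM with overload. Without Col3a1 no library passed 25.6 CPM.

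Igfbp4 and Igfbp7 encode secreted proteins that bind insulin-like growth factors. Igfbp4 was at 8.69, 3.82 and 3.26 CPM in the controls, 55.9, 3.10 and 3.05 CPM with non-overload and 2.42, 2.01 and 2.14 CPM with overload for Printex90. G1-1 levels of Igfbp4 were 8.03, 3.50 and 4.84 CPM in the controls, 3.54, 14.9 and 2.92 CPM with non-overload and 32.7, 5.33 and 5.81 CPM with overload. Its level without Col3a1 was 2.01 to 5.81 CPM. G3-1 levels of Igfbp4 were 2.95, 4.56 and 34.1 CPM in the controls, 22.6, 4.33 and 34 CPM with non-overload and 3.24, 100.2 and 46.6 CPM with overload. Bayertitan levels of Igfbp4 were 2.76, 3.85 and 20.8 CPM in the controls, 3.56, 176 and 23.6 CPM with non-overload and 12.1, 3.02 and 3.38 CPM with overload. The level passed that range in 14 of the 15 libraries with Col3a1. Igfbp7 was at 11.1, 9.51 and 8.03 CPM in the controls, 34.8, 6.03 and 7.89 CPM with non-overload and 6.11, 1.38 and 4.16 CPM with overload for Printex90. G1-1 levels of Igfbp7 were 11.5, 6.84 and 10.5 CPM in the controls, 7.97, 8.21 and 4.88 CPM with non-overload and 32.9, 8.36 and 5.89 CPM with overload. It passed all 21 other libraries in 13 of the 15. G3-1 levels of Igfbp7 were 3.25, 5.19 and 21.8 CPM in the controls, 14.9, 6.34 and 15.9 CPM with non-overload and 3.07, 30.5 and 46.5 CPM with overload. Bayertitan levels of Igfbp7 were 7.40, 8.04 and 19.5 CPM in the controls, 7.31, 43.3 and 23 CPM with non-overload and 22.7, 2.34 and 5.28 CPM with overload. The lowest value, 1.38 CPM, was that of Printex90 overload replicate 2.

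The lysyl oxidases, enzymes that cross-link collagen and elastin, overlapped between libraries with and without Col3a1. Lox was at 118, 92.8 and 85.2 CPM in the controls, 170.3, 106 and 97.1 CPM with non-overload and 142, 80.0 and 124 CPM with overload for Printex90. G1-1 levels of Lox were 87.7, 62.8 and 78.4 CPM in the controls, 86.9, 55.5 and 50.2 CPM with non-overload and 188, 66.1 and 51.3 CPM with overload. In the G1-1 series the library with the highest Lox also had the highest Col3a1. G3-1 levels of Lox were 109, 102 and 156 CPM in the controls, 120.0, 101 and 114 CPM with non-overload and 107, 181 and 138 CPM with overload. Bayertitan levels of Lox were 108, 107 and 160.3 CPM in the controls, 107, 182 and 139 CPM with non-overload and 115, 79.9 and 123 CPM with overload. Of the 15 libraries with Col3a1, 6 lay above all 21 without. Loxl1, the enzyme tied to elastic fibres, was at 28.7, 25.3 and 13.3 CPM in the controls, 30.9, 18.6 and 18.9 CPM with non-overload and 18.1, 7.31 and 17.8 CPM with overload for Printex90. G1-1 levels of Loxl1 were 22, 14 and 24.2 CPM in the controls, 15.4, 21.3 and 17.8 CPM with non-overload and 33.5, 22.6 and 23.5 CPM with overload. The groups with and without Col3a1 overlapped. G3-1 levels of Loxl1 were 18.3, 17.9 and 29.6 CPM in the controls, 18.8, 29.7 and 18.6 CPM with non-overload and 14.9, 31.7 and 30.7 CPM with overload. Bayertitan levels of Loxl1 were 24.4, 28.7 and 36.7 CPM in the controls, 23.6, 43 and 29.6 CPM with non-overload and 23, 10.0 and 27 CPM with overload. Again 6 of the 15 lay above all 21.

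The contractile and actin-binding genes overlapped widely between both kinds of library. Tagln, transgelin, ranged over 394 to 694 CPM without Col3a1 and 408 to 772 CPM with it. Its levels were 666, 594 and 485 CPM in the controls, 505, 582 and 544 CPM with non-overload and 694, 421 and 625 CPM with overload for Printex90. G1-1 levels of Tagln were 443, 394 and 521 CPM in the controls, 495, 408 and 442 CPM with non-overload and 541, 488 and 471 CPM with overload. A single library with Col3a1, Bayertitan control replicate 3, lay above all 21 without it. G3-1 levels of Tagln were 568, 559 and 490.1 CPM in the controls, 507, 605 and 527 CPM with non-overload and 536, 415 and 521 CPM with overload. Bayertitan levels of Tagln were 525, 565 and 772 CPM in the controls, 552, 457 and 573 CPM with non-overload and 533, 423 and 577 CPM with overload. Cald1, caldesmon, was at 667, 563 and 465 CPM in the controls, 561, 575 and 534 CPM with non-overload and 547, 285 and 506 CPM with overload for Printex90. G1-1 levels of Cald1 were 403, 409 and 548 CPM in the controls, 448, 381 and 402 CPM with non-overload and 568, 514 and 445 CPM with overload. The ratio of Tagln to Cald1 stayed within 0.901 to 1.71 over the 36 libraries. G3-1 levels of Cald1 were 435, 451 and 415 CPM in the controls, 296, 523 and 403 CPM with non-overload and 369, 429 and 438 CPM with overload. Bayertitan levels of Cald1 were 477, 479 and 650.3 CPM in the controls, 431, 392 and 440.0 CPM with non-overload and 403, 274 and 458 CPM with overload. Tpm2, beta-tropomyosin, ranged over 57.7 to 97.3 CPM without Col3a1 and 56.8 to 129 CPM with it. It was at 113, 89.2 and 83.8 CPM in the controls, 112, 92.9 and 93.4 CPM with non-overload and 97.3, 57.7 and 87 CPM with overload for Printex90. G1-1 levels of Tpm2 were 68.6, 67.6 and 87.6 CPM in the controls, 87.8, 56.8 and 69.3 CPM with non-overload and 95.6, 75.3 and 66.2 CPM with overload. The library with the lowest Tpm2 was G1-1 non-overload replicate 2. G3-1 levels of Tpm2 were 93.2, 86.6 and 84.6 CPM in the controls, 84.7, 92.6 and 80.3 CPM with non-overload and 72.8, 91.7 and 113 CPM with overload. Bayertitan levels of Tpm2 were 94.7, 90.6 and 114 CPM in the controls, 87.1, 129 and 98.9 CPM with non-overload and 93.8, 61.7 and 88.6 CPM with overload. In 6 of the 15 libraries with Col3a1 the level lay above all 21 others.

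**Figure D4:**
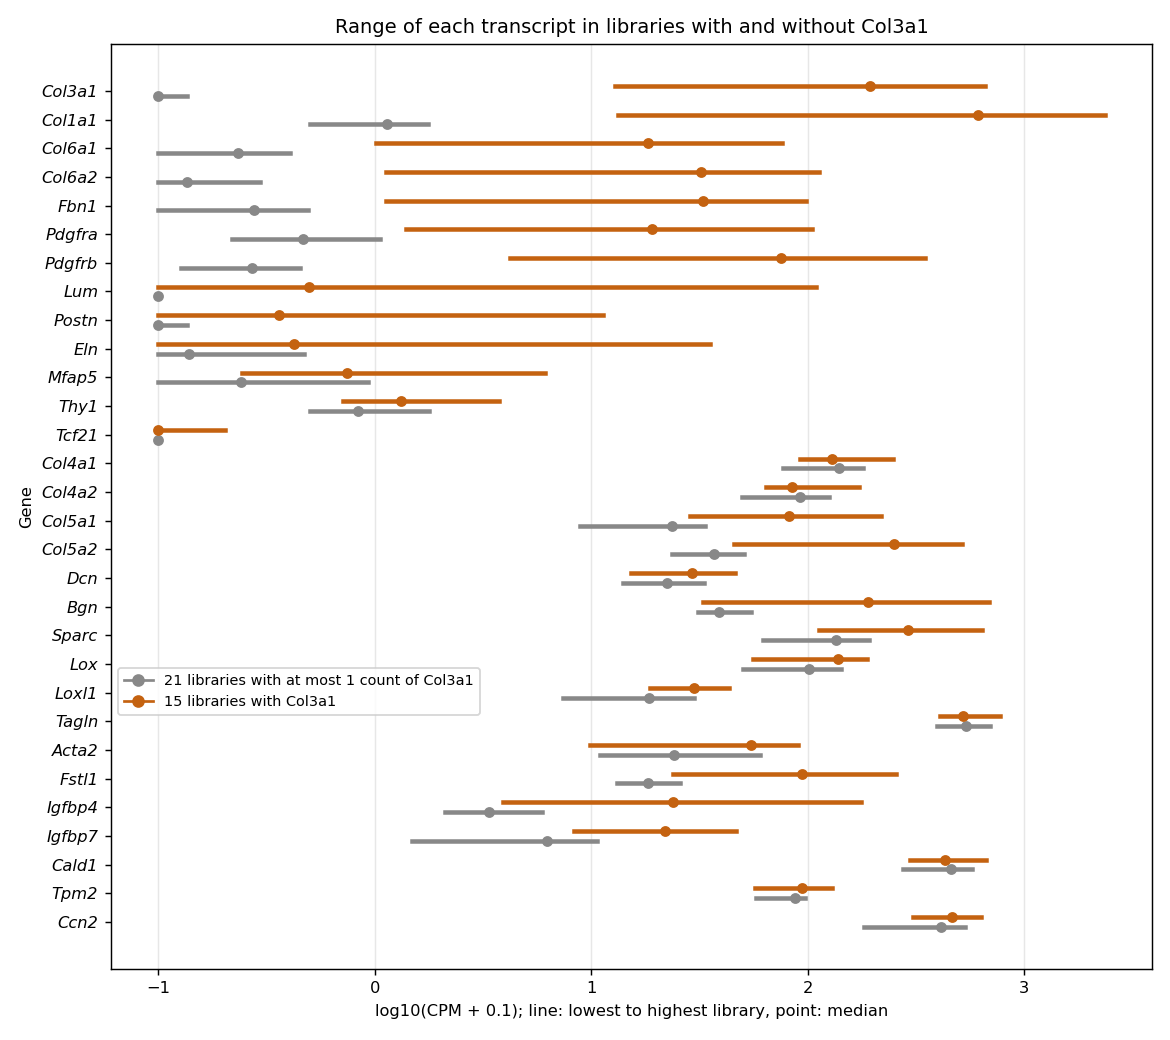
Lowest, median and highest level of each of the 30 genes as log10(CPM + 0.1) in the 15 libraries with Col3a1 (orange) and the 21 with at most 1 count of it (grey). The lines are apart for Col3a1 and the 6 genes below it, and overlap widely for Col4a1, Col4a2, Dcn, Tagln, Cald1, Tpm2 and Ccn2.

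The basement membrane collagens had ranges that overlapped widely between libraries with and without Col3a1. Col4a1 was at 186, 175 and 131 CPM in the controls, 119, 131 and 180.5 CPM with non-overload and 139, 76.8 and 146 CPM with overload for Printex90. G1-1 levels of Col4a1 were 122, 112 and 139 CPM in the controls, 113, 92.3 and 98.2 CPM with non-overload and 133, 109 and 86.7 CPM with overload. The highest of all levels was in a library with Col3a1 and the lowest in a library without it. G3-1 levels of Col4a1 were 145, 147 and 129 CPM in the controls, 113, 168 and 129.8 CPM with non-overload and 134, 116 and 134 CPM with overload. Bayertitan levels of Col4a1 were 158, 171 and 248 CPM in the controls, 155, 106 and 162 CPM with non-overload and 120.0, 80.2 and 164 CPM with overload. Col4a2, its partner chain in the collagen IV trimer and its neighbour across the 76 bases shown above, followed it closely. Col4a2 was at 131, 126 and 83.8 CPM in the controls, 88.7, 91.5 and 126 CPM with non-overload and 97.5, 49.5 and 106 CPM with overload for Printex90. G1-1 levels of Col4a2 were 83.7, 79.5 and 100.4 CPM in the controls, 84.1, 64 and 69.8 CPM with non-overload and 94.1, 78.5 and 63.9 CPM with overload. The highest library, Bayertitan control replicate 3, and the lowest, Printex90 overload replicate 2, were the same for both genes. G3-1 levels of Col4a2 were 88.5, 98.3 and 84.3 CPM in the controls, 72.7, 117 and 80.0 CPM with non-overload and 85.5, 87.5 and 83.6 CPM with overload. Bayertitan levels of Col4a2 were 112, 119 and 171 CPM in the controls, 96.5, 70.0 and 103 CPM with non-overload and 78.2, 51.9 and 107 CPM with overload. The ratio of Col4a1 to Col4a2 stayed within 1.33 to 1.64 over all 36 libraries, a 1.23-fold range, while Col4a1 itself ran from 76.8 to 248 CPM.

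In the 21 libraries without Col3a1, many of the 17 genes moved with the epithelial markers. For each gene the log2(CPM) level was correlated with the mean log2(CPM + 1) of 13 epithelial markers. There were 100000 permutations and Benjamini-Hochberg adjustment over the 17 genes. Of the 17, 11 passed 0.05 by both coefficients, 9 of them positive and 2 negative, and 13 passed by Pearson's r, which included Col5a2 and Ccn2. The correlations were run for these 17 genes alone, so the share of all genes that would pass is not known. Permutations ran over all 21 libraries and not within particle series or loading. Col5a1 had r = 0.88 (permutation adjusted p = 0.000113) and rho = 0.79 (adjusted p = 0.00085), and r was 0.72 without the 2 libraries farthest from the median of the markers. Igfbp7 had r = 0.88 (permutation adjusted p = 0.000113) and rho = 0.69 (adjusted p = 0.003), and 0.72 without those 2 libraries. After each series' mean was taken off, r within particle series was 0.91 for Col5a1 and 0.92 for Igfbp7. All 21 libraries were kept and loading was not taken off. In single series r was computed for Printex90 and G1-1 only, at 0.95 and 0.84 for Col5a1 and 0.98 and 0.76 for Igfbp7.

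The same was seen with lower values for other genes of the list. Sparc had r = 0.79 (permutation adjusted p = 0.000212) and rho = 0.71 (adjusted p = 0.003), and 0.58 without the 2 farthest libraries. Loxl1 had r = 0.81 (permutation adjusted p = 0.000113) and rho = 0.68 (adjusted p = 0.003), and 0.57 without them. For Cald1, Col4a2 and Col4a1 r was 0.80, 0.73 and 0.65 (permutation adjusted p = 0.000442, 0.00112 and 0.00258), and rho was 0.59, 0.61 and 0.56 (adjusted p = 0.0117, 0.0104 and 0.0164). Without the 2 farthest libraries r was 0.48, 0.40 and 0.31, so these 3 relations rested in part on those libraries, and within particle series it was 0.89, 0.82 and 0.81. The 2 proteoglycans went the other way. Dcn had r = -0.56 (permutation adjusted p = 0.013) and rho = -0.69 (adjusted p = 0.003), and -0.60 without the 2 farthest libraries. Bgn had r = -0.69 (permutation adjusted p = 0.00112) and rho = -0.71 (adjusted p = 0.003), and -0.44 without them. Within particle series r was -0.74 for both. Lox, Tagln, Acta2 and Fstl1 did not pass by either coefficient. The series contributed 6, 6, 4 and 5 libraries (Printex90, G1-1, G3-1 and Bayertitan), and libraries of all 3 loadings stand in these relations.

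Whether loading changed the list was tested against each particle's own controls with edgeR's quasi-likelihood test, adjusted over 14498 genes. The comparison passed by the largest share of genes over single particles was Bayertitan overload, where 9.84% of genes were called. Of the 29 listed genes 1 was called there, Dcn, which rose by 1.01 on the log2 scale (SE 0.278, adjusted p = 0.0317). The call was lost with the Bayertitan libraries fitted alone (adjusted p = 0.103) and in 5 of 6 fits that left out 1 library. It was kept without overload replicate 3. Without the libraries that held Col3a1 the change was 0.56. Calls are not compared in that fit, since 4 groups lost 2 of their 3 libraries. No listed gene was called with overload of Printex90 (7.99% of all genes called), G1-1 (5.01%) or G3-1 (0.117%). At an unadjusted p under 0.05 there were 0, 1 and 1 of 29 in these 3 comparisons, and 5 with Bayertitan overload, while the shares of all genes were 25.2%, 16.8%, 12.2% and 28.3%. With non-overload no listed gene was called for any particle, where the share of all genes called was 0.0621% for G1-1 and 0 for the other 3. The unadjusted counts were 0 for Printex90, 0 for G1-1, 1 for G3-1 and 5 for Bayertitan, beside 4.33%, 6.38%, 5.39% and 16.2% of all genes. By DESeq2 the overload counts were 2 for Printex90 (Col3a1 and Postn), 1 for G1-1 (Postn), 0 for G3-1 and 4 for Bayertitan. The non-overload counts were 0, 1 (Postn), 0 and 0. The shares above are edgeR's, and the share of all genes called by DESeq2 is not given here. For G1-1 Postn had 118, 0 and 0 counts with overload, 1, 5 and 1 with non-overload and 0, 0 and 0 in the controls. For Printex90 it had 0, 0 and 0 counts with overload and 0, 2 and 1 in the controls.

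The list's median log2 fold change differed between particles, as did the number of libraries with Col3a1 per group, whose part was not tested. With overload it was -0.80 for Printex90, 1.09 for G1-1, 1.41 for G3-1 and -0.08 for Bayertitan, while the median of all tested genes stayed within -0.01 and 0.01. The libraries with Col3a1 were 2 of 3 controls and 0 of 3 overload libraries for Printex90, 1 and 1 for G1-1, 1 and 2 for G3-1, and 1 and 1 for Bayertitan. With non-overload the list's medians were 0.76, -0.07, 0.11 and 1.07 in the same order of particles. None of the stromal genes with the widest differences was called by edgeR. For Col1a1 the log2 fold change with Printex90 overload was -4.29 with an SE of 3.87, and with Bayertitan non-overload 3.12 with an SE of 2.79.

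Dcn, decorin, rose on average over the 4 particles with overload and with non-overload. In the Printex90 series Dcn was at 22, 22.2 and 23.7 CPM in the controls, 32.6, 19.3 and 24.9 CPM with non-overload and 23.8, 26.8 and 24.8 CPM with overload. In the G1-1 series it was at 24.6, 22.3 and 21.6 CPM in the controls, 33.2, 29 and 29.3 CPM with non-overload and 32.4, 23.6 and 21.9 CPM with overload. All 3 Printex90 overload libraries lay just above the controls, and all 3 G1-1 non-overload libraries lay above theirs. In the G3-1 series Dcn was at 21.4, 14.8 and 19.4 CPM in the controls, 36, 17.6 and 45.4 CPM with non-overload and 22.4, 40.2 and 35.4 CPM with overload. In the Bayertitan series it was at 13.9, 14.7 and 15.1 CPM in the controls, 18.5, 23.3 and 22.6 CPM with non-overload and 45.8, 23.5 and 18.9 CPM with overload. In both series the 3 overload libraries lay above the 3 controls, as did the 3 Bayertitan non-overload libraries. Such separation, in either direction, was found for 25.4%, 14.7% and 31.0% of all 14498 genes with Printex90, G3-1 and Bayertitan overload. With G1-1 and Bayertitan non-overload it was found for 16.0% and 21.7%. Over the 4 particles 10 of 12 overload libraries and 10 of 12 non-overload libraries lay above the highest control of their own series. Controls ranged from 13.9 to 24.6 CPM over all series, non-overload libraries from 17.6 to 45.4 CPM and overload libraries from 18.9 to 45.8 CPM.

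The mean log2 fold change of Dcn over the 4 particles was 0.54 with overload (SE 0.138, adjusted p = 0.0056 by edgeR's quasi-likelihood test). It was 1 of 3 listed genes called in that comparison, in which 24.0% of all genes were called. With non-overload the mean was 0.50 (SE 0.137, adjusted p = 0.0482), the single call among the 29 beside 2.75% of all genes, and it was lost without the filter on low counts, with the replicate block (adjusted p = 0.0527) and in 20 of 24 fits that left out 1 library. The call was kept without Printex90 control 3, G1-1 control 1, G3-1 non-overload 2 or Bayertitan non-overload 1. Without the libraries that held Col3a1 the non-overload mean was 0.19, and with the mean epithelial marker level as a covariate 0.26 (adjusted p = 0.64). Per particle the overload change was 0.15 for Printex90, 0.18 for G1-1, 0.82 for G3-1 and 1.01 for Bayertitan. These 4 effects were not found to differ (F test, adjusted p = 0.336). The overload mean passed in each of 24 fits that left out 1 library, with values of 0.42 to 0.60. Without the 15 libraries that held Col3a1 it was 0.26, and with the epithelial marker level as a covariate 0.18 (adjusted p = 0.72).

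Collagen IV fell on average with overload. The mean log2 fold change was -0.36 for Col4a1 (SE 0.12, adjusted p = 0.0317) and -0.36 for Col4a2 (SE 0.127, adjusted p = 0.0406). Of 12 overload libraries 6 lay below the lowest control of their own series for Col4a1, and none lay above the highest. Of 12 non-overload libraries 7 lay below and 1 above, so low values were not particular to overload. For Col4a2 7 overload and 7 non-overload libraries lay below. Per particle the overload change of Col4a1 was -0.44 for Printex90, -0.18 for G1-1, -0.13 for G3-1 and -0.67 for Bayertitan, none of which passed by itself. Without the libraries that held Col3a1 the values were -0.25 and -0.24. Calls are not compared in that fit, in which 4 groups lost 2 of their 3 libraries. With the epithelial marker level as a covariate the values were -0.001 for Col4a1 and 0.04 for Col4a2. Leaving out 1 library ended the call of Col4a1 in 9 of 24 fits (Printex90 control 1, control 2 or overload 2, G1-1 control 3 or overload 3, G3-1 control 2 or overload 2, Bayertitan control 3 or overload 2). It ended the call of Col4a2 in 14 of 24, these 9 and G1-1 overload 2, G3-1 control 1, overload 1 or overload 3, and Bayertitan overload 1.

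The epithelial markers moved in the same comparison. Of the 13 tested, 8 fell with overload on average and none rose, where 24.0% of all genes were called and 12.1% were called lower. Scgb1a1, the secretoglobin of club cells, fell by 1.96 on the log2 scale (adjusted p = 0.00117), and Aqp5, a water channel of alveolar type I cells, by 2.33 (adjusted p = 0.00188). The summed level of the list was 1894 to 3486 CPM in the 12 controls, 1212 to 3008 CPM with non-overload and 1360.0 to 2789 CPM with overload. The mean log2(CPM + 1) of the markers was 5.72 in Printex90 controls and 4.92 with overload, 5.38 and 5.35 for G1-1, 5.27 and 4.63 for G3-1, and 5.78 and 4.87 for Bayertitan. Their part in the changes of Dcn and collagen IV was examined only by the covariate given above.

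**Figure D5:**
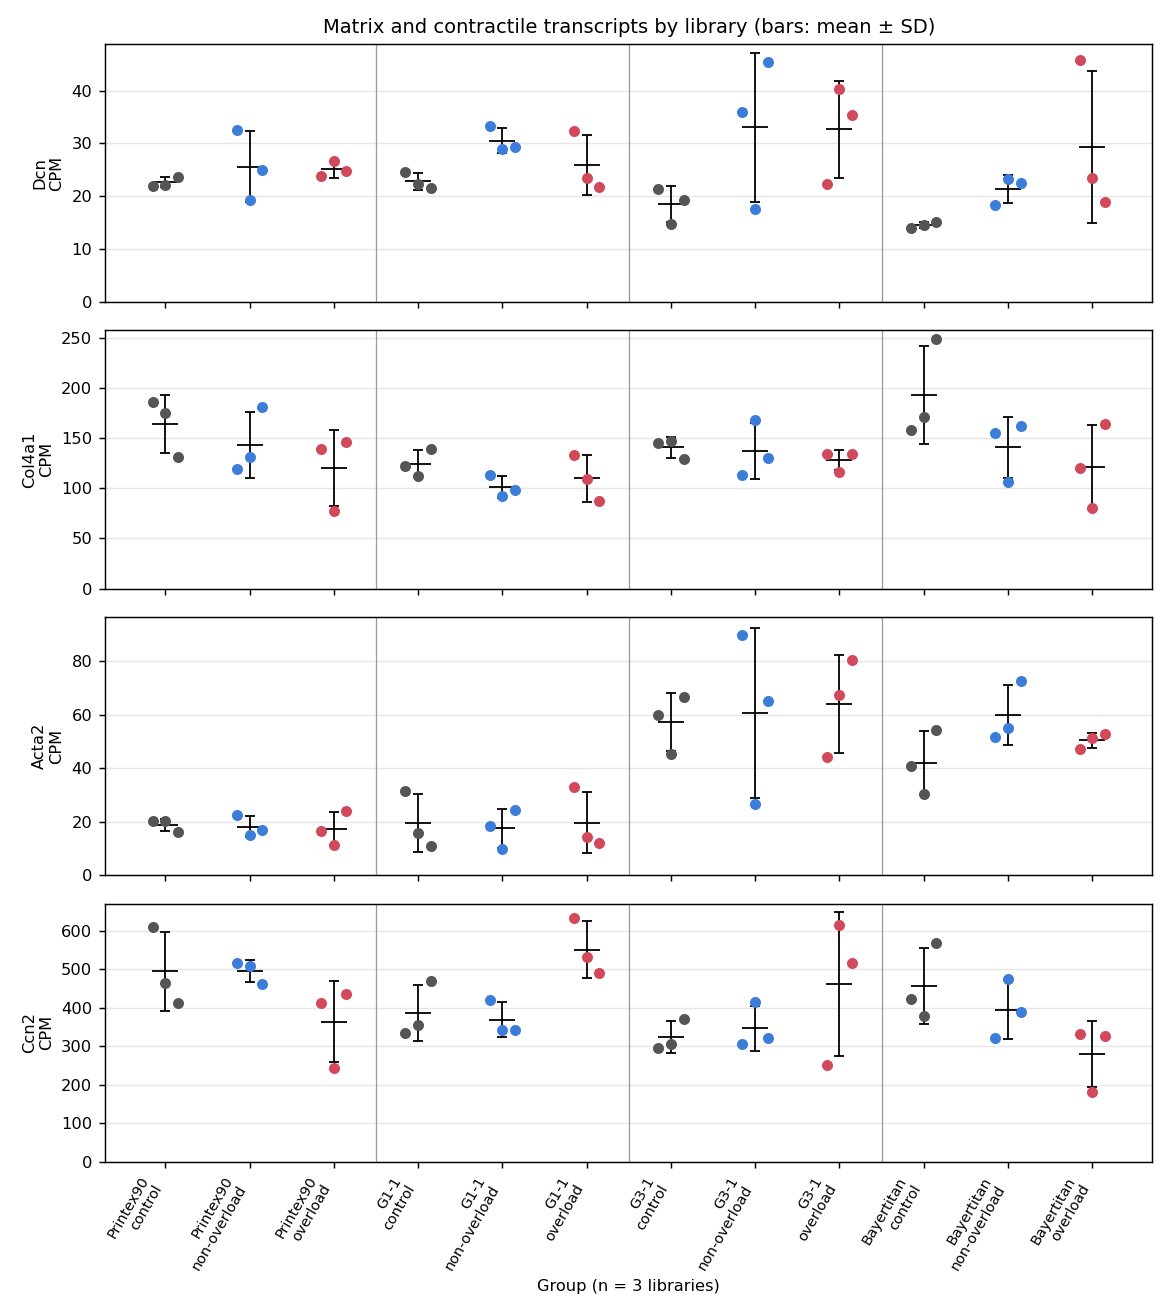
Levels in CPM of Dcn, Col4a1, Acta2 and Ccn2 in each library by group, with a short bar at the mean and an error bar of ± 1 SD (n = 3 libraries; grey controls, blue non-overload, red overload). Dcn controls lie at 13.9 to 24.6 CPM, a range that many exposed libraries share. For each loading 10 of 12 libraries lie above the highest Dcn control of their own series. Acta2 is at 9.76 to 32.8 CPM in the Printex90 and G1-1 series and 26.7 to 89.8 CPM in the G3-1 and Bayertitan series.

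Ccn2 encodes a matricellular protein induced by TGF-beta and by the YAP and TEAD factors, and was at 181 to 632 CPM in all libraries. In the Printex90 series it was at 609, 464 and 411 CPM in the controls, 516, 509 and 462 CPM with non-overload and 413, 243 and 436 CPM with overload. In the G1-1 series it was at 333, 356 and 469 CPM in the controls, 421, 341 and 343 CPM with non-overload and 632, 531 and 489 CPM with overload. All 3 G1-1 overload libraries lay above the G1-1 controls, while no Printex90 group was apart from its controls. In the G3-1 series Ccn2 was at 294, 305 and 372 CPM in the controls, 306, 414 and 321 CPM with non-overload and 252, 614 and 515 CPM with overload. In the Bayertitan series it was at 424, 377 and 568 CPM in the controls, 321, 475 and 389 CPM with non-overload and 332, 181 and 326 CPM with overload. All 3 Bayertitan overload libraries lay below the Bayertitan controls. Such separation, in either direction, was found for 24.2% of all 14498 genes with G1-1 overload and 31.0% with Bayertitan overload. The log2 fold changes with overload were -0.44, 0.51, 0.51 and -0.71 in the order Printex90, G1-1, G3-1 and Bayertitan, and none was called. The F test of the difference between particles gave an adjusted p of 0.0907 by edgeR and called Ccn2 by DESeq2, in a comparison in which edgeR called 1.72% of all genes and none of the 29, of which 2 had an unadjusted p under 0.05 (17.5% of all genes). For non-overload effects edgeR called no difference between particles among all 14498 genes, and 1 of the 29 had an unadjusted p under 0.05 (2.95% of all genes), while DESeq2 called 0 of the 29.

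The control groups of the particle series differed in Acta2, the actin of smooth muscle and myofibroblasts. The level was 20.2, 20.2 and 16.2 CPM in the controls, 22.5, 14.9 and 17 CPM with non-overload and 16.5, 11.4 and 24 CPM with overload for Printex90. G1-1 levels of Acta2 were 31.6, 15.8 and 10.9 CPM in the controls, 18.2, 9.76 and 24.5 CPM with non-overload and 32.8, 14.1 and 12.1 CPM with overload. G3-1 levels of Acta2 were 60.1, 45.2 and 66.5 CPM in the controls, 89.8, 26.7 and 65.2 CPM with non-overload and 44.3, 67.5 and 80.7 CPM with overload. The G3-1 controls all lay above the controls of the first 2 series, and no effect of loading on Acta2 was called. Bayertitan levels of Acta2 were 40.9, 30.4 and 54.5 CPM in the controls, 51.7, 55.2 and 72.6 CPM with non-overload and 47.1, 51.3 and 52.8 CPM with overload. Libraries of the Printex90 and G1-1 series together ranged from 9.76 to 32.8 CPM, and those of the G3-1 and Bayertitan series from 26.7 to 89.8 CPM. An F test of the 4 control groups, added after these values had been seen, gave an adjusted p of 0.022 for Acta2, the single call among the 29 beside 5.59% of all genes. It was lost in 4 of the 12 fits that left out 1 control library, namely Printex90 control 1, G1-1 control 2, G3-1 control 1 or G3-1 control 3. Of 9 tested smooth muscle and pericyte genes 4 also passed this test, Cnn1 (adjusted p = 0.000339), Lmod1 (0.0028), Myl9 (0.00471) and Des (0.0106). The particle of a series and any other difference between the series cannot be told apart in the controls, and the part of smooth muscle transcripts was not tested.

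The genes that process collagen were set beside the list. These 24 genes encode hydroxylases, chaperones, proteases and further lysyl oxidases, of which 21 had a row and 20 were tested, and 17 were at 1 CPM or more in all libraries without Col3a1. None followed Col3a1 in every library. The nearest were Pcolce, an enhancer of procollagen C-proteinase, and Fkbp10, a collagen chaperone, for each of which 14 of the 15 libraries with Col3a1 lay above all 21 without. Serpinh1, the collagen chaperone, was at 96.9 to 413 CPM with Col3a1 and 45.1 to 121 CPM without it, with 12 of 15 above all 21. On average over the particles 6 of 20 were called with overload, 3 higher and 3 lower, in the comparison with 24.0% of all genes called. Loxl4, a lysyl oxidase, fell by 0.74 on the log2 scale (adjusted p = 0.000468), and P3h2, a prolyl hydroxylase of collagen IV, by 1.17 (adjusted p = 0.00188). Plod1, a lysyl hydroxylase, rose by 0.20 (adjusted p = 0.00116) and P4hb, a subunit of prolyl hydroxylase and a disulfide isomerase, by 0.12 (adjusted p = 0.00423). With non-overload 1 of 20 was called, beside 2.75% of all genes. This was P4ha1, a prolyl hydroxylase subunit named here after its value was seen, which rose by 0.29 (adjusted p = 0.027).

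Of 31 other matrix genes 30 had a row and 27 were tested, and with overload on average 3 rose and 2 fell, 5 of 27 beside 24.0% of all genes called. Col15a1, a basement membrane collagen, rose by 0.25 on the log2 scale (adjusted p = 0.00235) and Nid2, a nidogen that links laminin to collagen IV, by 0.67 (adjusted p = 0.0055). Fn1, fibronectin, fell by 0.34 (adjusted p = 0.00509), and with Printex90 overload by 0.84 (adjusted p = 0.00396). Lamb1, a laminin chain of basement membranes, fell by 0.37 (adjusted p = 0.0185). Among the basement membrane genes called and named, Col15a1 and Nid2 thus rose where Lamb1 and the 2 collagen IV genes fell. The share of this list called lay under that of all genes, and its other basement membrane genes are not described here. The calls of Col15a1, Nid2 and Lamb1 were not checked by leaving out libraries. With non-overload none of the 27 was called on average, while 8 had an unadjusted p under 0.05 in the same edgeR test, as did 21.6% of all genes.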

How the data were processed

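Per the labels' protocols, total RNA of the 36 rat alveolar macrophage samples was purified on RNeasy columns with a DNase step, and 150 ng went into a KAPA HyperPrep library after RiboErase depletion of ribosomal RNA. The values that the authors deposited are estimated counts for each gene symbol, without scaling between libraries. The submitters' processing notes name Salmon, FastQC, MultiQC and the build Rnor_6.0. Tool versions, the annotation used, how transcripts were summed to genes and the use of strand are not given in the sources used here, so overlapping and antisense genes and near-identical copies are uncertain. Of the values 47.7% were not whole.

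Counts were rounded, filtered with edgeR's filterByExpr by group and scaled by TMM (factors 0.934 to 1.07). A quasi-likelihood model with a mean for each of 12 groups was fitted to all 36 libraries (edgeR 4.0.16, limma 3.58.1, R 4.3.3, 24 residual degrees of freedom), with Benjamini-Hochberg adjustment over 14498 genes and a threshold of 0.05. Contrasts gave each loading against the particle's own controls, the means over 4 particles and F tests of differences. SE values come from the fit. The F test of controls and the epithelial covariate were chosen after seeing the data. The fit was checked on simulated counts. A library was counted as holding Col3a1 above 10 counts, and a gene as present at 1 CPM or more in every library without it. The limit of 3 counts covers counting error only. Log scales use log2(CPM + 1), except for the gene levels in the correlations, which use log2(CPM). Correlations and the exact permutation test used scipy 1.17.1.

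No 2 libraries of a group were duplicates: their chi-square per gene lay between 6.80 and 52.2, and sampling noise would give about 1. The members and the gene lists were chosen with earlier results of these data known. By rule, values in every library are given for Col3a1, Col1a1, Sparc, Dcn and each gene called or present without Col3a1, and up to 4 called genes are named per other list. Genes of other lists named for following Col3a1 or for going the other way, and Serpinh1, were chosen after their values were seen. Alternatives were DESeq2 1.42.0, RLE size factors, no filter, a block for replicate number, single libraries left out, no libraries with Col3a1, and each particle alone.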

Additional observations from a re-analysis of the deposited data

Results flagged for a closer look

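Ccn2 was marked because its overload effects had opposite directions in 2 particle series. The log2 fold change was 0.51 with G1-1, where all 3 overload libraries lay above all 3 controls, and -0.71 with Bayertitan, where all 3 lay below. Such separation, in either direction, was found for 24.2% of all 14498 genes with G1-1 overload and 31.0% with Bayertitan overload, so by itself it does not set Ccn2 apart. Neither passed by edgeR (adjusted p = 0.323 and 0.0738). The F test of the difference between the 4 particles gave an adjusted p of 0.0907 by edgeR's quasi-likelihood test and did not pass, while DESeq2 called it. Groups of 3 libraries are too small for a test of single outlying libraries, so none was run.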

How the results depend on the processing

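RLE size factors changed no call. DESeq2 gave 2 called listed genes for Printex90 overload, 1 for G1-1 overload, 4 for Bayertitan overload (Dcn, Ccn2, Col4a1, Col4a2), 1 for G1-1 non-overload, 2 for the mean non-overload effect (Dcn, Postn) and 1 for the difference of overload effects (Ccn2). The shares of all genes called by DESeq2 and in the other fits of this section are not given. The counts therefore cannot be set against them. Without the filter on low counts the mean non-overload count was 0. Without libraries holding Col3a1, 4 groups lost 2 of their 3 libraries, so calls are not compared. The mean overload log2 fold change of Bgn was then 0.32, against 1.08 in all libraries (edgeR adjusted p = 0.104). With each particle alone the count was 0 for Bayertitan overload (Dcn adjusted p = 0.103). With the epithelial covariate it was 0 for both means, and Col4a2 reversed to 0.0394. Leaving out 1 library gave counts of 0 to 4 for Bayertitan overload, 1 to 4 for mean overload, 0 to 1 for mean non-overload, 0 to 1 for the difference of overload effects and 0 to 1 for the control groups. The 4 for Bayertitan overload came without overload 3, the 1 for the difference without G3-1 overload 1, and Bgn passed for mean overload without G3-1 control 3 (1.41, adjusted p = 0.0371). The difference in Col3a1 ranged from -0.42 to 0.93 with overload and from 0.56 to 2.00 with non-overload. The number of libraries with Col3a1 was 15 at each limit tried. The cause of these shifts was not tested.

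Pairing of libraries by replicate number was not shown by the rule used: in 0 of 8 comparisons were all 3 same-number correlations over 0.1 (range -0.50 to 0.53). That rule cannot exclude pairing. With G1-1 overload 2 of 3 were over 0.1 and all 3 libraries correlated best with their own number, while with G1-1 non-overload 0 did either. With the replicate block the mean non-overload count was 0 (Dcn adjusted p = 0.0527), and no other count moved by over 1.5 times.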

Other observations

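Some genes of other cell types were also called with overload on average over the 4 particles, in the comparison with 24.0% of all genes called by edgeR. The endothelial, smooth muscle and further fibroblast counts below lay near or under that share. Of 7 tested mesothelial genes 3 fell, among them Msln, mesothelin, by 0.74 on the log2 scale (adjusted p = 0.00375), while the mesothelial markers Upk3b and Calb2 stayed under 0.28 CPM in every library. Lrrn4 and Rspo1 of that list had log2 fold changes of 0.40 and 0.20 and were not called (adjusted p = 0.124 and 0.319). Pdpn, podoplanin, which alveolar type I cells and some fibroblasts make, was the 1 gene of 17 tested fibroblast genes outside the list that was called, and fell by 0.46 (adjusted p = 0.0104). Of 9 tested endothelial genes 2 rose, Cdh5, the endothelial cadherin, by 0.49 (adjusted p = 0.000431) and the receptor Tie1 by 0.22 (adjusted p = 0.00491). Tek of the same list had a log2 fold change of -0.40 and was not called (adjusted p = 0.0822). Of 9 tested smooth muscle and pericyte genes 2 rose, Myh11, smooth muscle myosin, by 0.44 (adjusted p = 0.000438) and Des, desmin, by 0.33 (adjusted p = 0.00597). Notch3 of that list had a log2 fold change of -0.48 and was not called (adjusted p = 0.053). Among 11 tested macrophage markers 5 rose and 2 fell, and Cd68, the lysosomal glycoprotein, rose by 0.28 (adjusted p = 0.000288). The 2 that fell were Csf1r, by 0.21 (adjusted p = 0.00773), and Adgre1, by 0.26 (adjusted p = 0.0357). For 3 of the 11 the overload effect differed between particles by the F test, beside 1.72% of all genes. Adgre1 was among these 3, with a log2 fold change of -0.99 for G1-1 and 0.18 for Bayertitan, the latter not called.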
